A study of Mus musculus with 6 samples.

Results

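The genes described here encode Polycomb repressive complex proteins: Ezh2, Ezh1, Eed, Suz12, Jarid2 and Mtf2 of Polycomb repressive complex 2 (PRC2), and Ring1, Rnf2, Bmi1 and Pcgf6 of Polycomb repressive complex 1 (PRC1). They were taken by name, as every probe set (row) of the deposited table whose annotation gives 1 of these symbols alone. All 10 genes had a row, and Eed had 2, so 11 of the 23410 rows with an annotated gene, or 10 of 19938 genes with a row of their own, are members. The 6 Affymetrix arrays measured messenger RNA of A3-1 cells, a mouse embryonic stem (ES) cell line grown in serum medium that contained the cytokine LIF, which keeps such cells undifferentiated. The groups were siLin28a, cells given a small interfering RNA (siRNA) against Lin28a for 48 h, siGFP, cells given a control siRNA against green fluorescent protein for 48 h, and untreated cells, with 2 arrays in each. Each siRNA group received 1 siRNA sequence, and all arrays come from the same cell line. Whether the arrays within a group stem from different cultures is not stated, so every p-value rests on array-to-array spread that could be purely technical.

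Polycomb proteins keep developmental genes silent in ES cells. In PRC2, the enzyme EZH2 or its relative EZH1 methylates a lysine of histone H3 and works only together with EED, which binds the methylated mark, and SUZ12, the scaffold of the complex, while JARID2 and MTF2 help to bring the complex to its target genes. In PRC1, RNF2 or RING1 attaches ubiquitin to histone H2A together with a partner of the PCGF family, which can be BMI1 or PCGF6. LIN28A, whose transcript the siRNA targets, binds RNA and blocks the maturation of let-7 microRNAs.

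The siRNA against Lin28a is shown because it is the only designed difference between the siLin28a and siGFP groups. Its 2 complementary strands have 19 bases each before a deoxythymidine overhang, as the labels give them.
First strand: gcagaagcgaagauccaaa
Second strand: uuuggaucuucgcuucugc
Values are log2 expression, so that a difference of 1 is a doubling. Lin28a itself was at 7.4 and 7.4 in the siLin28a arrays, 9.1 and 9.4 in the siGFP arrays and 9.1 and 9.4 in the untreated arrays. Its log2 difference was −1.85 against either other group (SE 0.16). That gap was short of the threshold by limma, with an adjusted p of 0.512 against siGFP and 0.171 against untreated cells, although against siGFP it had the smallest p of all 23410 rows.

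Of the members, the 4 PRC2 genes on which the comparisons below turn are shown by their promoters, from RefSeq (build GRCm38.p6). These are the 250 bases before a start of transcription, 5′ to 3′ on the gene's own strand. For Ezh2 this is not the outermost start: the gene reaches to 47595270, so most of the stretch lies within it. The Mtf2 gene begins at 108065660, so the last bases of its stretch lie within it. Capitals mark CpG dinucleotides, the bases that make up CpG islands.
Ezh2, chr6:47595031-47595280, minus strand: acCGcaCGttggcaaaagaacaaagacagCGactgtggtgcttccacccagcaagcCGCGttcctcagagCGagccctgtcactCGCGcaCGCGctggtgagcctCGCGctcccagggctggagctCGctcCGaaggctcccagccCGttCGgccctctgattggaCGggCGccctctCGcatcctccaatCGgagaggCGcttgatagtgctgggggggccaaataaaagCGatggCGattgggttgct
Eed, chr7:89980977-89981226, minus strand: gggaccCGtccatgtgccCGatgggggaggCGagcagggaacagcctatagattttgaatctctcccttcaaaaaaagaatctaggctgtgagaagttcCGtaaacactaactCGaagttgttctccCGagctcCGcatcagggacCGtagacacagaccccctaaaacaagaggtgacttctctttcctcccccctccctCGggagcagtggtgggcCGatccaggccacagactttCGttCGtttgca
Suz12, chr11:79992856-79993105, plus strand: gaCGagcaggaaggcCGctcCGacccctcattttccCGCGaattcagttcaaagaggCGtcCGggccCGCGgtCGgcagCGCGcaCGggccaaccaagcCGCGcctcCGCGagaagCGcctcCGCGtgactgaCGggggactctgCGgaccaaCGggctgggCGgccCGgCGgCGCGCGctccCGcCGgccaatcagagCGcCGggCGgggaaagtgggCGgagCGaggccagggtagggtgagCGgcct
Mtf2, chr5:108065424-108065673, plus strand: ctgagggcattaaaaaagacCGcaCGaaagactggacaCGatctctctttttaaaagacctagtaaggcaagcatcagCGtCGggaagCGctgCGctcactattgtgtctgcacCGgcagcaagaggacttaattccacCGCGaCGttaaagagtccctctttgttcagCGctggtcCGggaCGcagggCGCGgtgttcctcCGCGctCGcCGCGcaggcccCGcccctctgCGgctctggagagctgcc
Suz12 had the densest of these promoters, with 37 CpG, while Ezh2 and Mtf2 had 23 each and Eed had 12. Promoters of all 10 members were in the table, 12 in all because Jarid2 and Mtf2 have 2 starts each. They held between 2 and 37 CpG with a median of 21.5, against a median of 6 over 32851 promoters of mouse genes, and the lowest was the downstream start of Mtf2. The CCAAT box (CCAAT) was found on either strand in 4 of the 12, among them 3 matches in Ezh2 and 1 in Suz12, and in 33.8% of all promoters. The GC box (GGGCGG) was found in 8 of the 12, with 6 matches in Bmi1 and 3 in Suz12, and in 32.7% of all promoters. The TATA box (TATAAA) was found in 1 of the 12, the downstream start of Jarid2, and in 12.4% of all promoters. An E2F motif (TTTGGCGC or TTTCGCGC) was found in 0 of the 12 and in 0.654% of all promoters. None of these motifs contains another. A match is a description of the letters only.

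The comparison of siLin28a with siGFP holds delivery of an siRNA the same and differs in its sequence. With 1 sequence per group, the reduction of Lin28a cannot be told apart from other effects of either sequence. Among the PRC2 members, Suz12 and Mtf2 had log2 differences of −0.50 each, Eed −0.30 and Jarid2 −0.15. The enzymes Ezh2 and Ezh1 had −0.05 each. Other subunits and cofactors of PRC2, described further below, did not all differ by more than the enzymes. Epop had −0.45, Aebp2 −0.30, Lcor −0.15 and Phf19 −0.10, but Rbbp4 had −0.05, Phf1 0.00 and Rbbp7 0.05. In PRC1, Pcgf6 had −0.35 and Rnf2 −0.25, and Ring1 and Bmi1 had 0.10 each. None of the 11 rows passed the test over 23410 rows, with adjusted p-values between 0.953 and 0.960 by limma, so these are values and not calls. Over all rows 0% passed, and 4.05% had an unadjusted p under 0.05 (2.26% lower and 1.79% higher in siLin28a), where 0 of the 11 member rows did. The differences of both enzymes turned positive, between 0.033 and 0.037, once the arrays were normalized again by quantiles or by cyclic loess.

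**Figure D1:**
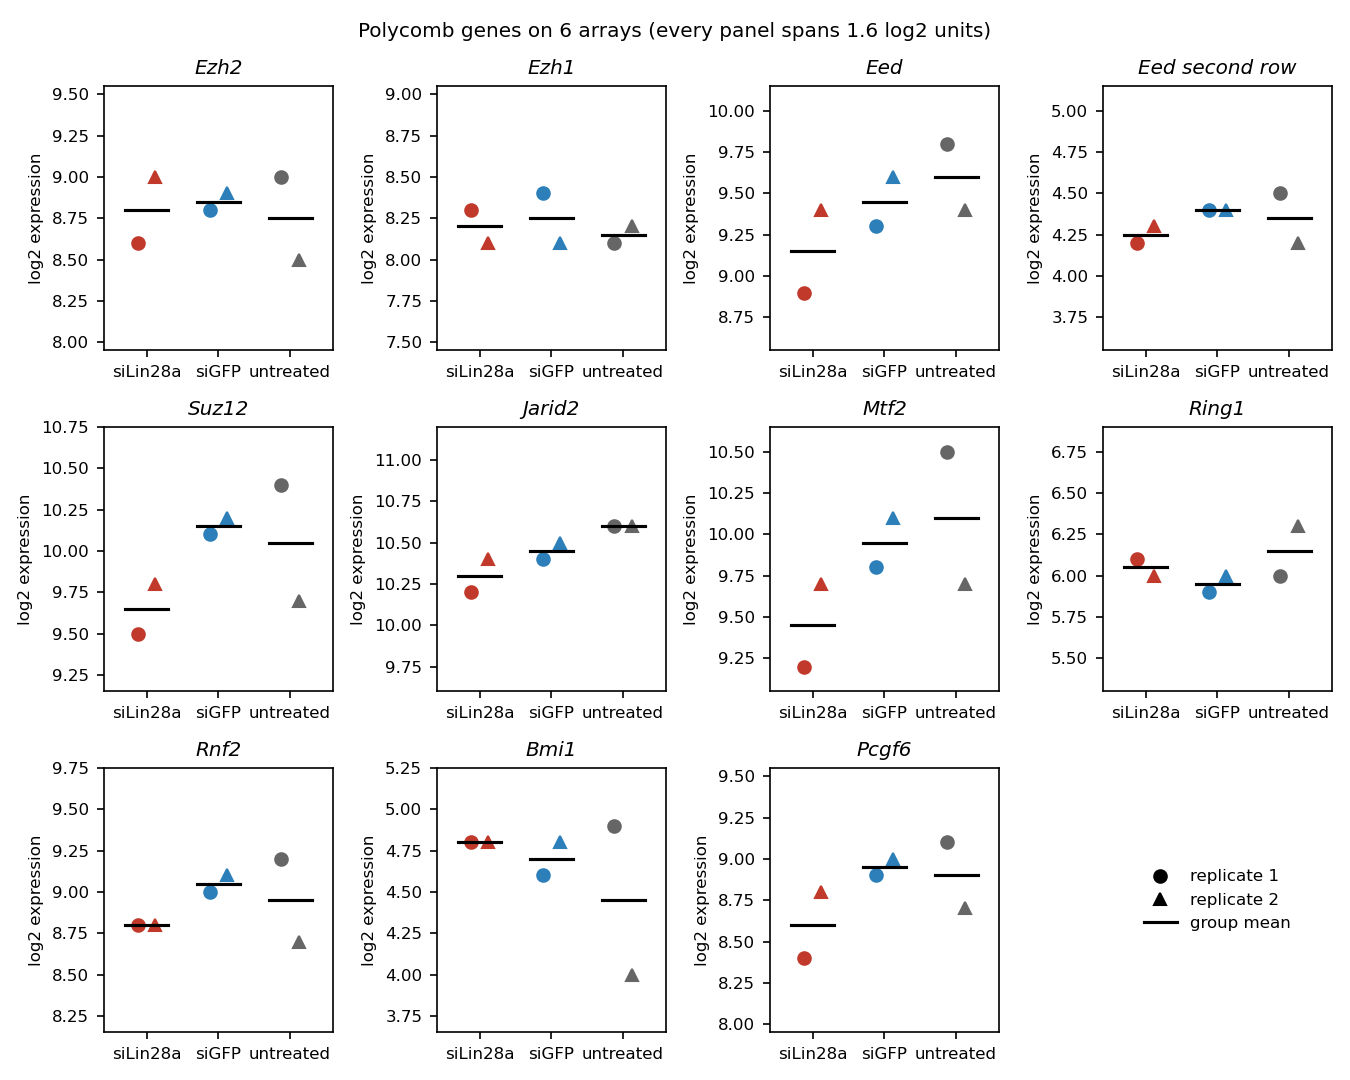
Log2 expression of the 11 member rows on each of the 6 arrays, with group means as bars. Panels have different centres and the same span of 1.6 log2 units. The siLin28a points lie below the siGFP points for Suz12, Mtf2, Rnf2, Pcgf6 and the second row of Eed, and the untreated points lie as far apart as 0.9 (Bmi1).

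Ezh2, the main enzyme for the Polycomb methyl mark in ES cells, was at 8.6 and 9.0 in the siLin28a arrays, 8.8 and 8.9 in the siGFP arrays and 9.0 and 8.5 in the untreated arrays. The groups overlapped, and the gaps of 0.4 between the siLin28a arrays and 0.5 between the untreated arrays exceeded the largest gap between group means, 0.1. The log2 difference between siLin28a and siGFP was −0.05 (SE 0.21), with a 95% interval from −0.57 to 0.47. Ezh1, its less active relative, was at 8.3 and 8.1 in the siLin28a arrays, 8.4 and 8.1 in the siGFP arrays and 8.1 and 8.2 in the untreated arrays. It stayed within 0.3 over all 6 arrays, and its difference between siLin28a and siGFP had a 95% interval from −0.42 to 0.32. A difference of 1, a doubling or halving, lay outside the intervals of both enzymes. The same held for every other member row in this comparison except Suz12 and Mtf2, whose intervals reached −1.09 and −1.23.

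Eed, which reads the methylated histone, was at 8.9 and 9.4 in the siLin28a arrays, 9.3 and 9.6 in the siGFP arrays and 9.8 and 9.4 in the untreated arrays. Its lowest array was siLin28a replicate 1 and its highest untreated replicate 1, and siLin28a replicate 2 lay within the siGFP range. The log2 difference between siLin28a and siGFP was −0.30 (SE 0.23, adjusted p 0.953 by limma), and it was −0.05 without siLin28a replicate 1 and −0.55 without replicate 2. A second row for Eed, which the annotation ties to 1 cDNA only, was dim, between 4.2 and 4.5 on every array. It had −0.15 in the same comparison (SE 0.14).

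Suz12, the scaffold, was at 9.5 and 9.8 in the siLin28a arrays, 10.1 and 10.2 in the siGFP arrays and 10.4 and 9.7 in the untreated arrays. Both siLin28a arrays lay below both siGFP arrays, while untreated replicate 2 lay between the siLin28a arrays. The log2 difference between siLin28a and siGFP was −0.50 (SE 0.24), a 1.41-fold lower level, with a 95% interval from −1.09 to 0.09. It had the smallest unadjusted p of the members in this comparison, 0.0847 by limma (adjusted p 0.953). The difference was −0.35 without siLin28a replicate 1 and −0.65 without replicate 2.

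Mtf2, the recruiting subunit that binds CpG-rich DNA, varied most over the 6 arrays, by 1.3. It was at 9.2 and 9.7 in the siLin28a arrays, 9.8 and 10.1 in the siGFP arrays and 10.5 and 9.7 in the untreated arrays. Both siLin28a arrays lay below both siGFP arrays, and siLin28a replicate 2 equalled untreated replicate 2. The log2 difference between siLin28a and siGFP was −0.50 (SE 0.30, adjusted p 0.953 by limma), with −0.25 without siLin28a replicate 1 and −0.75 without replicate 2. Jarid2, a recruiting subunit that lacks the demethylase activity of its family, was at 10.2 and 10.4 in the siLin28a arrays, 10.4 and 10.5 in the siGFP arrays and 10.6 and 10.6 in the untreated arrays. Its arrays lay within 0.2 of each other in every group, and the siLin28a and siGFP arrays touched at 10.4. The difference between siLin28a and siGFP was −0.15 (SE 0.13), and it was −0.05 without siLin28a replicate 1 and −0.25 without replicate 2.

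Among the PRC1 genes, Rnf2, the main H2A ubiquitin ligase of ES cells, was at 8.8 and 8.8 in the siLin28a arrays, 9.0 and 9.1 in the siGFP arrays and 9.2 and 8.7 in the untreated arrays. Its siLin28a arrays lay below its siGFP arrays and inside the range of the untreated ones. The log2 difference between siLin28a and siGFP was −0.25 (SE 0.18, adjusted p 0.953 by limma). Ring1, the related ligase, was dimmer, at 6.1 and 6.0 in the siLin28a arrays, 5.9 and 6.0 in the siGFP arrays and 6.0 and 6.3 in the untreated arrays. It differed by 0.10 (SE 0.14), with overlapping groups.

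Pcgf6, the PCGF partner of a variant PRC1 found in ES cells, was at 8.4 and 8.8 in the siLin28a arrays, 8.9 and 9.0 in the siGFP arrays and 9.1 and 8.7 in the untreated arrays. The siLin28a arrays lay below the siGFP arrays, and untreated replicate 2 lay between the siLin28a arrays. The log2 difference between siLin28a and siGFP was −0.35 (SE 0.20, adjusted p 0.953 by limma), with −0.15 without siLin28a replicate 1 and −0.55 without replicate 2. Bmi1, the PCGF partner in canonical PRC1, was among the dim rows, at 4.8 and 4.8 in the siLin28a arrays, 4.6 and 4.8 in the siGFP arrays and 4.9 and 4.0 in the untreated arrays. Its gap of 0.9 between the untreated arrays was larger than any difference between its group means.

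**Figure D2:**
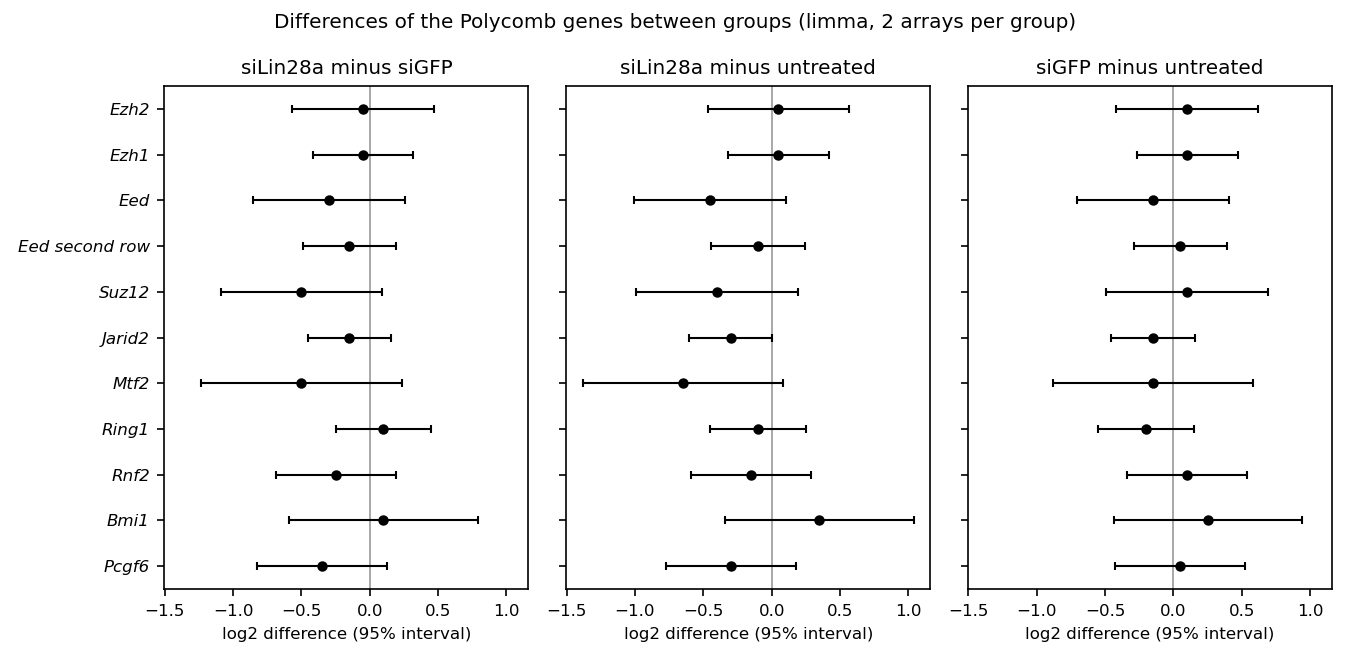
Log2 differences of the 11 member rows in the 3 comparisons, as points with 95% intervals from limma (2 arrays per group). Every interval includes 0, and the nearest to leaving it is Jarid2 between siLin28a and untreated cells, with an upper bound of 0.0054.

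Counted over the 11 rows, 9 were lower and 2 higher in siLin28a than in siGFP. The siLin28a and siGFP arrays did not overlap for 5 rows, all lower in siLin28a: Suz12, Mtf2, Rnf2, Pcgf6 and the second row of Eed. The background was 11.8% of all tested rows lower without overlap and 9.03% higher. Over the 10 genes, each by its brightest row, the median log2 difference was −0.20 with 8 lower and 2 higher. Over all 19938 genes it was 0.00, with 49.2% lower. Bright genes as a whole also had mostly lower values in siLin28a. The 3365 genes with a mean from 8 to 11, where 8 of the 10 members lie, had a median of −0.10, with 69.4% lower. The 2 higher members, Ring1 and Bmi1, lie below that range, so all 8 bright members were lower. Without overlap, 561 of these 3365 genes were lower and 80 higher, so bright genes without overlap were also mostly lower. Of the 10 members, each by its brightest row, 4 were lower and 0 higher without overlap, and these 4 are among the 8 bright ones. The members' median was −0.133 with quantile normalization repeated and −0.115 with cyclic loess, which bring the arrays' distributions together, and −0.10 without siLin28a replicate 1. Values of ES cell markers differed in the same direction: all 12 listed markers had lower values in siLin28a than in siGFP, and their median level was 10.05 and 10.15 in the siLin28a arrays, 10.55 and 10.75 in the siGFP arrays and 10.65 and 10.80 in the untreated arrays. Their part in the members' differences was not tested. In RNA from whole cultures, fewer cells of a type and less RNA per cell cannot be told apart.

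The comparison of siLin28a with untreated cells combines siRNA delivery, the reduction of Lin28a and any other effect of the sequence. It shares the siLin28a arrays with the one above. Mtf2 had −0.65 (SE 0.30), Eed −0.45 (SE 0.23), Suz12 −0.40 (SE 0.24), Jarid2 −0.30 (SE 0.13) and Pcgf6 −0.30 (SE 0.20), and none passed (adjusted p between 0.776 and 0.952 over the 11 rows by limma). Ezh2 and Ezh1 had 0.05 each, and Bmi1 had 0.35 (SE 0.28). Over all rows 0% passed and 6.44% had an unadjusted p under 0.05 (3.55% lower and 2.89% higher in siLin28a), where 0 of the 11 member rows did. Jarid2 had the smallest unadjusted p, 0.0531 by limma, and it was the only member row whose siLin28a arrays both lay below both untreated arrays, where 12.6% of all rows did (11.1% were higher without overlap). For Suz12 the difference was −0.05 without untreated replicate 1 and −0.75 without replicate 2, and for Mtf2 it was −0.25 and −1.05. Without siLin28a replicate 2 it was −0.70 for Eed and −0.50 for Pcgf6, and without siLin28a replicate 1 it was −0.20 for Eed and −0.10 for Pcgf6.

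Setting siGFP against untreated cells gives the values that go with delivery of the control siRNA. Of the 11 rows 7 were higher and 4 lower in siGFP, none passed (0% of all rows did, and adjusted p was between 0.961 and 0.962 over the 11 rows by limma), and 0 had an unadjusted p under 0.05, where 3.52% of all rows did (1.33% lower and 2.19% higher in siGFP). The sizes lay between −0.20 for Ring1 and 0.25 for Bmi1, with Jarid2, Eed and Mtf2 at −0.15 each and Suz12 at 0.10. Ring1 was at −0.35 without untreated replicate 1 and −0.05 without replicate 2. Only Jarid2 had arrays that did not overlap, with 10.4 and 10.5 in siGFP and 10.6 and 10.6 in untreated cells, and 8.46% of all rows were lower and 9.22% higher without overlap. The median over the 10 genes was 0.075, and it was −0.15 without untreated replicate 2 and 0.25 without untreated replicate 1. Untreated replicate 1 was the highest or equal highest array for 9 of the 11 rows, and siLin28a replicate 1 the lowest or equal lowest for 6. For untreated replicate 1, the median deviation from the members' own means was 0.26, and it was −0.13 in untreated replicate 2. Bright genes deviated by a median of 0.02 and 0.05 in these 2 arrays, so the gap between them was wider for the members than for bright genes in general.

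The 2 untreated arrays differed in 1 direction for most members, with replicate 1 above replicate 2 for 8 of the 11 rows, so each member was also set against Ezh2 of the same array. This ratio was chosen after the values were seen and is given without a test. Only its shift between arrays carries information, since levels of different probe sets are not comparable. Relative to Ezh2, Suz12 was at 0.9 and 0.8 in the siLin28a arrays, 1.3 and 1.3 in the siGFP arrays and 1.4 and 1.2 in the untreated arrays. Mtf2 was at 0.6 and 0.7 in the siLin28a arrays, 1.0 and 1.2 in the siGFP arrays and 1.5 and 1.2 in the untreated arrays. Both lay lower in the 2 siLin28a arrays than in any of the other 4.

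Eed relative to Ezh2 was at 0.3 and 0.4 in the siLin28a arrays, 0.5 and 0.7 in the siGFP arrays and 0.8 and 0.9 in the untreated arrays, so that the 3 groups followed each other without overlap. Pcgf6 relative to Ezh2 was at −0.2 and −0.2 in the siLin28a arrays, 0.1 and 0.1 in the siGFP arrays and 0.1 and 0.2 in the untreated arrays. The differences between siLin28a and siGFP were −0.45 for Suz12, −0.45 for Mtf2, −0.30 for Pcgf6 and −0.25 for Eed. These were the 4 of 10 rows that were lower without overlap, where 6.25% of all other rows were, and the same 4 of 10 were lower against untreated cells, where 7.32% were. The siLin28a arrays are common to both counts. Ezh2 itself rose and fell with these 4 rows over the 6 arrays (Pearson r between 0.63 and 0.73), so subtracting it can narrow their spread. It also did so with Rnf2, Bmi1 and the second row of Eed (r between 0.68 and 0.79), which overlapped. The counts therefore cannot be weighed against the shares of other rows, and only Ezh2 was used as the reference. In siGFP against untreated cells Eed was lower without overlap, 1 of 10 rows, where 6% of all other rows were. Ezh1, Jarid2, Rnf2, Ring1, Bmi1 and the second row of Eed overlapped in both comparisons. A ratio within an array can show only that values of transcripts shifted unequally, not which of them shifted, and the noise of Ezh2 enters every ratio.

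**Figure D3:**
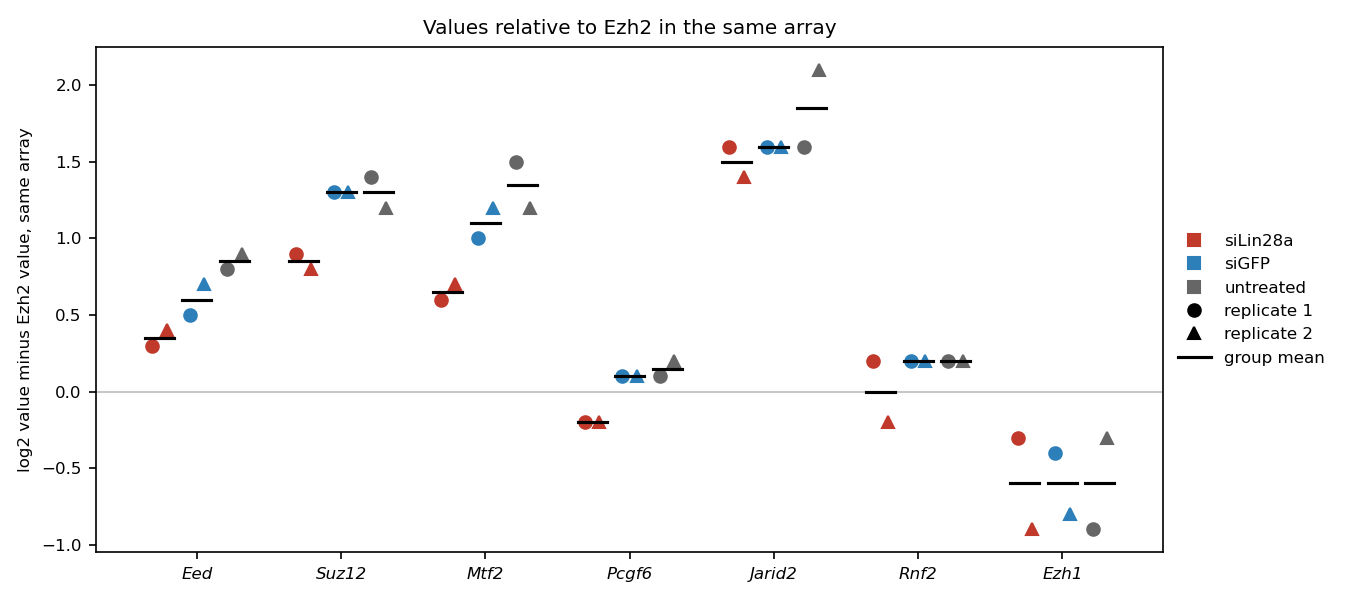
Log2 value of 7 members minus the Ezh2 value of the same array, by group, with group means as bars. For Eed, Suz12, Mtf2 and Pcgf6 the 2 siLin28a points lie below all 4 other points, while Jarid2, Rnf2 and Ezh1 overlap between groups.

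Mtf2 had the widest gap between group means of the members, 0.65. Among 9808 rows of other genes with a mean of at least 6, those whose 6 values were most like it were Tcea1 (Pearson r 0.996 over the 6 arrays), Anp32e (0.996) and Vps35 (0.993). Anp32e was at 8.9 and 9.2 in the siLin28a arrays, 9.2 and 9.4 in the siGFP arrays and 9.6 and 9.2 in the untreated arrays. As in Mtf2, untreated replicate 1 was highest and siLin28a replicate 1 lowest, over a smaller range.

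The other subunits of both complexes were counted in the same way. Of 9 further PRC2 genes, 6 were lower, 2 higher and 1 equal in siLin28a against siGFP, with a median of −0.05, and 0 passed in either direction (1 had an unadjusted p under 0.05, Epop). That median was −0.20 without siLin28a replicate 1 and −0.10 without replicate 2. Epop, which links PRC2 to elongin, was at 8.6 and 8.9 in the siLin28a arrays, 9.0 and 9.4 in the siGFP arrays and 9.1 and 9.0 in the untreated arrays, a difference of −0.45 between siLin28a and siGFP (SE 0.18, adjusted p 0.953 by limma). Aebp2, a zinc finger cofactor of PRC2, was at 7.3 and 7.5 in the siLin28a arrays, 7.6 and 7.8 in the siGFP arrays and 8.1 and 7.8 in the untreated arrays, a difference of −0.30 (SE 0.16). Both had siLin28a arrays below all 4 other arrays, a pattern whose share over all rows was not counted. Against siGFP alone, 2 of the 9 genes were lower and 0 higher without overlap. Of all rows 11.8% were lower and 9.03% higher in that way. Lcor had −0.15. Between siGFP and untreated cells Phf19, a relative of Mtf2, had 0.45 (SE 0.15) and Rbbp7, a histone-binding subunit, −0.35 (SE 0.13), both short of the threshold (adjusted p 0.961 by limma) and without overlap.

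Of 27 further PRC1 genes, 14 were lower, 10 higher and 3 equal in siLin28a against siGFP, with a median of −0.05, and 0 passed (1 had an unadjusted p under 0.05, Pcgf5). Pcgf5, a PCGF partner of variant PRC1, was at 6.5 and 6.4 in the siLin28a arrays, 6.9 and 6.9 in the siGFP arrays and 6.7 and 6.4 in the untreated arrays. It had −0.45 between siLin28a and siGFP (SE 0.14, adjusted p 0.953 by limma) and 0.35 between siGFP and untreated cells, so its siGFP arrays stood above both other groups. Wdr5, which is also part of the opposing COMPASS complexes, had −0.30 and Scmh1 −0.25 between siLin28a and siGFP. Rybp, a subunit of variant PRC1, was at 8.3 and 8.4 in the siLin28a arrays, 8.5 and 8.4 in the siGFP arrays and 8.9 and 8.7 in the untreated arrays. Both siRNA groups lay below the untreated arrays for Rybp, with −0.35 between siGFP and untreated cells (SE 0.13).

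Genes that work against Polycomb were examined in the same fit. Of 9 genes for the H2A deubiquitinases, their partners and the demethylases of the PRC2 mark, 3 were lower, 2 higher and 4 equal in siLin28a against siGFP, with a median of 0.00 and 0 passed (0 had an unadjusted p under 0.05). The demethylase Kdm6a had −0.25 (SE 0.21), the deubiquitinase Usp16 −0.25 (SE 0.37) and Foxk1, a partner of the deubiquitinase complex, 0.20 (SE 0.14). Usp16 was at 7.2 and 6.0 in the untreated arrays, a wide gap. Between siGFP and untreated cells Usp16 had 0.30 and Foxk1 −0.15. Of 16 trithorax and COMPASS genes, which place an activating mark on histone H3, 11 were lower and 5 higher, with a median of −0.075 and 0 passed (1 had an unadjusted p under 0.05, Kmt2c). Kmt2c, a methyltransferase of enhancers, was at 6.6 and 6.5 in the siLin28a arrays, 7.2 and 6.9 in the siGFP arrays and 7.2 and 6.9 in the untreated arrays, a difference of −0.50 (SE 0.16, adjusted p 0.953 by limma). The related Kmt2a had −0.15. Between siGFP and untreated cells Men1 had −0.30 (SE 0.28) and Dpy30 −0.20 (SE 0.19).

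Developmental genes that Polycomb is known to silence in ES cells were mostly dim. Only 7 of the 91 measured genes had a mean of at least 6, and the median level of the list was 4.8 and 4.7 in the siLin28a arrays, 4.6 and 4.6 in the siGFP arrays and 4.7 and 4.8 in the untreated arrays. Between siLin28a and siGFP 59 were higher, 18 lower and 14 equal, with a median of 0.10, and 0 passed (1, Neurod1, had an unadjusted p under 0.05, and it is named after its values were seen). All 6749 genes with a mean from 4 to 6 had a median of 0.05. The median of the list was 0.00 without siLin28a replicate 1 and 0.15 without replicate 2. Nkx2-5, a heart transcription factor, had 0.20 (SE 0.14), Evx2, a homeobox gene, 0.10 (SE 0.20) and Msx1, another homeobox gene, 0.10 (SE 0.12). Against untreated cells the list's median was 0.05 in siLin28a and −0.05 in siGFP, and Otp and Sox1, neural transcription factors, had −0.15 each between siGFP and untreated cells.

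**Figure D4:**
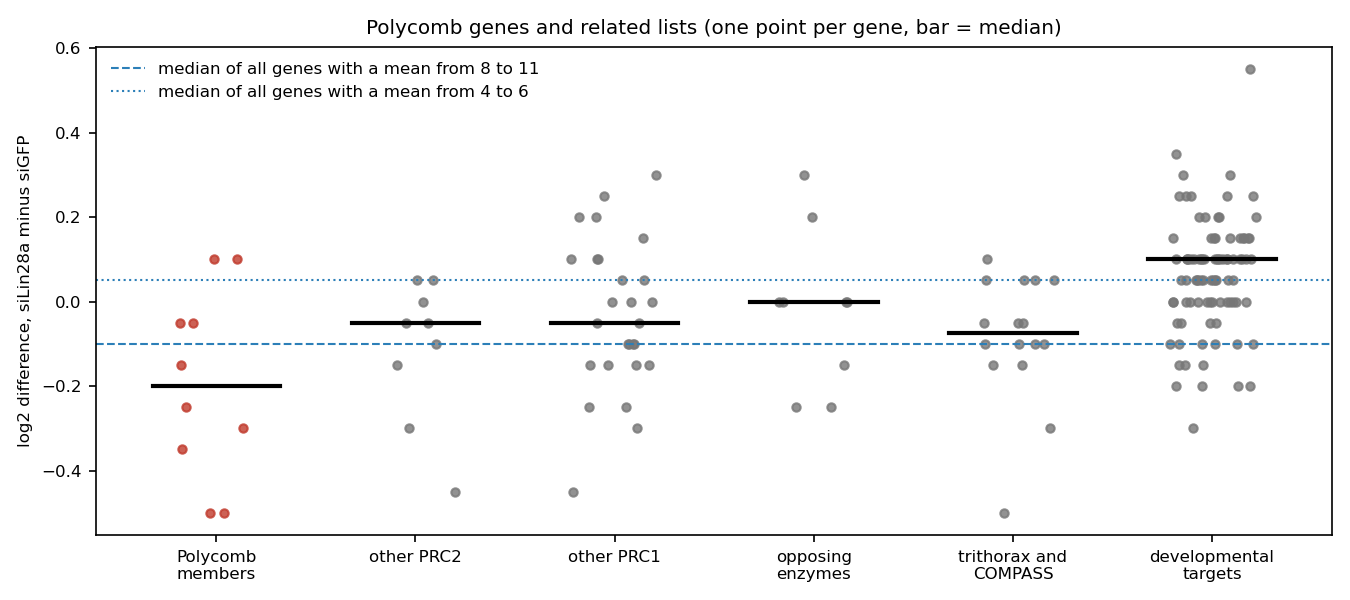
Log2 difference between siLin28a and siGFP for each gene of the Polycomb members and 5 related lists, with the list median as a bar. Lines mark the medians of all genes of high and low brightness, −0.10 and 0.05. The members have a median of −0.20 and the developmental targets 0.10.

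All 12 ES cell markers had a mean of at least 6. Of the markers of other cells, 3 of 14 for feeder fibroblasts, 1 of 9 for primitive endoderm, 0 of 7 for mesoderm and definitive endoderm, 3 of 7 for neural ectoderm and 2 of 8 for trophoblast reached that level. The summed level of the fibroblast markers was 71.6 and 70.4 in the siLin28a arrays, 70.0 and 70.2 in the siGFP arrays and 69.8 and 71.9 in the untreated arrays. Single markers of other lists differed in both directions between siLin28a and siGFP, and none passed (adjusted p 0.953 for each of those named here, by limma, chosen after their values were seen). Tubb3 and Map2, neuronal cytoskeleton genes, had −0.55 and −0.50, Nes, of neural progenitors, 0.45, and Tfap2c, of the trophoblast list, −0.55. Tfap2c was at 8.2 and 8.3 in the untreated arrays. Of the same list, Cdx2 was at 4.1 and 4.6 there and Elf5 at 3.9 and 4.4. The level of Tfap2c alone therefore does not mark trophoblast cells in these cultures. Of all 7 neural ectoderm markers 4 were higher and 3 lower, and of the 8 for trophoblast 4 were higher and 3 lower. Of the 7 mesoderm and definitive endoderm markers 5 were higher and 0 lower. Of the 9 for primitive endoderm 3 were higher and 4 lower, and of the 14 for fibroblasts 8 were higher and 3 lower. Their part in the members' values was not tested. Across the arrays, the median of all rows lay at 5.2 or 5.3, and the upper quartile was 7.0 and 7.1 in the siLin28a arrays and 7.2 in each of the other 4.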

How the data were processed

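Messenger RNA was measured on 6 arrays of A3-1 mouse ES cells, 2 per group. Affymetrix Expression Console with RMA produced the values the authors deposited, per the submitters' processing notes, with no versions stated. RMA subtracts background, equalises the arrays' quantiles and combines the probes of each probe set. The authors' deposited values were read as log2 from their range and come in steps of 0.1. Rows were named from the platform's annotation: 23410 of 35556 rows had a gene, 21789 of them 1 symbol and 1621 several. All 10 members matched RefSeq genes by Entrez number.

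From these values limma 3.58.1 in R 4.3.3 was fitted to the 23410 named rows over 6 arrays in 3 groups (3 residual degrees of freedom, 3.19 added by the prior), two-sided, with Benjamini-Hochberg adjustment over all rows at 0.05. The SE and 95% intervals are moderated by limma. An exact permutation test with 2 arrays a side could reach no p below 0.333, and the number of arrays limits the precision. In lists, the brightest row represented its gene where a gene had several. The procedure was tested on simulated data with added differences larger than any seen for a member, so the test does not cover differences of the members' size. The text names all members, Lin28a, the 3 rows most like the member whose group means differed most, and per list the 3 genes with the largest siLin28a-siGFP difference and the 2 with the largest siGFP-untreated difference, if the mean of the brighter of the groups reached 6. Neurod1, Tubb3, Map2, Nes, Tfap2c, Cdx2, Elf5, Pcgf2, Rbbp4 and Phf1 were named outside this rule, after their values were seen. Members, lists and tests were chosen with earlier results of these data known. Alternatives changed the prior, the normalization, the rows and the arrays used, and added the replicate number as a block. Replicate numbers were not taken as pairs, since no shared culture or day is given for them.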

Additional observations from a re-analysis of the deposited data

How the results depend on the processing

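None of the 11 member rows passed the threshold in any of the 3 comparisons under any alternative. In siLin28a against siGFP, 1 row passed over the whole table with a robust prior and 1 with cyclic loess. In siLin28a against untreated cells it was 7 with a robust prior and 5 with cyclic loess. Lin28a was among them, with adjusted p-values by limma of 0.0244 and 0.0441 against siGFP. For siLin28a against siGFP, Ezh2 was at 0.033 with quantile normalization and 0.037 with cyclic loess, and Ezh1 at 0.033 and 0.034, so both turned positive. Outside the fits that leave out an array, these were the 4 of 324 member values that reversed, and the cause was not tested.

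Leaving out 1 array at a time reversed 19 of 198 member values. For siLin28a against siGFP, Ezh2 ranged from −0.25 to 0.15 and Ezh1 from −0.20 to 0.10. For siLin28a against untreated cells the ranges were −0.20 to 0.30 for Ezh2, −0.05 to 0.15 for Ezh1, −0.25 to 0.05 for the second row of Eed, −0.25 to 0.05 for Ring1, −0.40 to 0.10 for Rnf2 and −0.10 to 0.80 for Bmi1. For siGFP against untreated cells they were −0.15 to 0.35 for Ezh2, −0.05 to 0.25 for Ezh1, −0.35 to 0.05 for Eed, −0.10 to 0.20 for its second row, −0.25 to 0.45 for Suz12, −0.55 to 0.25 for Mtf2, −0.15 to 0.35 for Rnf2, −0.20 to 0.70 for Bmi1 and −0.15 to 0.25 for Pcgf6. The median of the members in that comparison ranged from −0.15 to 0.25. A fit that leaves a group with 1 array assumes that it varies like the others.

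With the replicate number as a block, 0 rows passed in each comparison, and rows with an unadjusted p under 0.05 numbered 1350, 1933 and 1255, against 949, 1508 and 825 without it. Deviations of same-numbered arrays correlated at 0.357 between siLin28a and siGFP, −0.0352 between siLin28a and untreated and 0.154 between siGFP and untreated. Over the named rows, siLin28a and siGFP arrays of the same number had a Pearson r of 0.9946 (replicate 1) and 0.995 (replicate 2). Within a group it was 0.9941 for siLin28a and 0.9931 for siGFP. A pairing of these 2 groups by number is therefore possible, though the labels do not state it. Without rows of mean under 6, the counts were 443, 921 and 365. With 2 arrays a group the SE of a member lay between 0.126 and 0.302, so differences of the size seen could not be resolved, and Bmi1, Ring1 and the second row of Eed lie among the dim or middling rows.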
